A study of Mus musculus with 18 samples.

Results

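A set of 8 genes of ammonia production and acid-base transport in the mouse kidney, Slc38a3, Glud1, Slc4a4, Slc9a3, Rhcg, Rhbg, Car2 and Car4, were followed across 18 kidney libraries. They were taken by gene symbol, and each of the 8 symbols matched 1 of the 19545 entries of the deposited table. The kidney makes ammonia from glutamine in the proximal tubule, which also returns bicarbonate to the blood, and the collecting duct passes the ammonia into the urine together with protons. Glutamine uptake and its breakdown to glutamate and ammonia are known to rise in the rodent kidney during metabolic acidosis, and the carbonic anhydrases interconvert carbon dioxide and bicarbonate on both sides of the tubule membranes.

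RNA was sequenced from kidneys of ICR mice, an outbred stock, aged 10 weeks, in 6 groups of 3. One group served as control, another received AOS at 10 mg/kg (AOS), and 4 of the 6 received STZ. Of these 4, the first had no further treatment (STZ) and the second also received AOS at 10 mg/kg (STZ+AOS). Both others had a transfer, with AOS at 10 mg/kg and FMT in the label of STZ+AOS-FMT and control FMT in that of STZ+control-FMT. The labels do not say whether donors or recipients were given this AOS. By usage, STZ stands for streptozotocin, which destroys pancreatic beta cells and makes rodents diabetic, and FMT for transplantation of faecal microbiota. AOS is not spelled out in the labels, which give no dose of STZ, no sex, and no measure of blood glucose or pH.

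Levels are in FPKM, the authors' values per kilobase of gene and scaled to the assigned reads or fragments of the library, and are given for replicates 1, 2 and 3 in that order or as mean ± SD (n = 3). Log2 differences are on the scale of log2(FPKM + 1) with a standard error (SE). A gene was called where limma's adjusted p (Benjamini-Hochberg over the 12682 genes tested) was under 0.05, and all 8 genes passed the filter on low values. The read totals are unknown, so no counting interval is given. These are bulk samples, in which fewer cells of a type and less RNA per cell cannot be told apart.

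Some libraries stood apart from their labels or from the rest. Kap, an abundant androgen-dependent proximal tubule RNA, was at 145522 to 150876 FPKM in controls 1 and 2 and 144521 to 155154 in the AOS group. It was at 15798 in the library labelled control 3, and in the STZ group at 144830, 63552 and 14615. It lay between 6174 and 85880 in the other 9 libraries, all from mice given STZ. The control 3 library thus lay with STZ libraries and the STZ 1 library with those of mice without STZ. Adrenal markers summed to 1.09 to 1.5 FPKM in the AOS group and 71.5 to 1514 in STZ+AOS. In controls 1, 2 and 3 the sum was 0.79, 1.11 and 501 FPKM. Cyp11b1, 1 of these markers, was above 100 FPKM in control 3, STZ+AOS 1 and STZ+AOS 3. The injury marker Havcr1 was at 423, 32.0 and 7.45 FPKM in STZ+AOS, against 1.63 to 2.27 in AOS. All 10 proximal tubule markers, which the label kidney calls for, were detected, and 4 spermatid markers were above 0 in sum in the control and STZ groups but at most 0.18 FPKM in the other groups. Between AOS and STZ+AOS many genes differed: 5895 were called, 46.5% of those tested, 4985 higher and 910 lower in STZ+AOS. Under median-of-ratios rescaling the split was 1723 higher and 2499 lower, and under quantile normalization 1407 and 1951, so differences in that comparison are also given against the median of all genes, which was 0.29 as deposited.

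The 8 genes ranged over about an order of magnitude in level per length. Car2 had the highest mean over the 18 libraries, 333.7 FPKM, followed by Glud1 at 211.7, Car4 at 167.4 and Slc4a4 at 109.3. Slc38a3, Rhcg, Slc9a3 and Rhbg followed at 34.2, 33.7, 28.8 and 22.9 FPKM. The most even was Slc4a4, whose highest library was 1.67 times its lowest, and the most variable Slc38a3, at 4.96 times. Over the 6 groups, the AOS group had the lowest mean of Slc38a3, Glud1, Rhcg, Rhbg and Car2 and the highest of Car4. In the test for any difference among the 6 groups, limma called 0 of the 8 genes, beside 82 genes called in all (0.647%). An unadjusted p under 0.05 was found for 1 of the 8, Car4, beside 3942 of the 12682 genes tested. Car4 came nearest, with an adjusted p of 0.0823 from limma, and the adjusted p of the other 7 lay between 0.252 and 0.587.

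**Figure D1:**
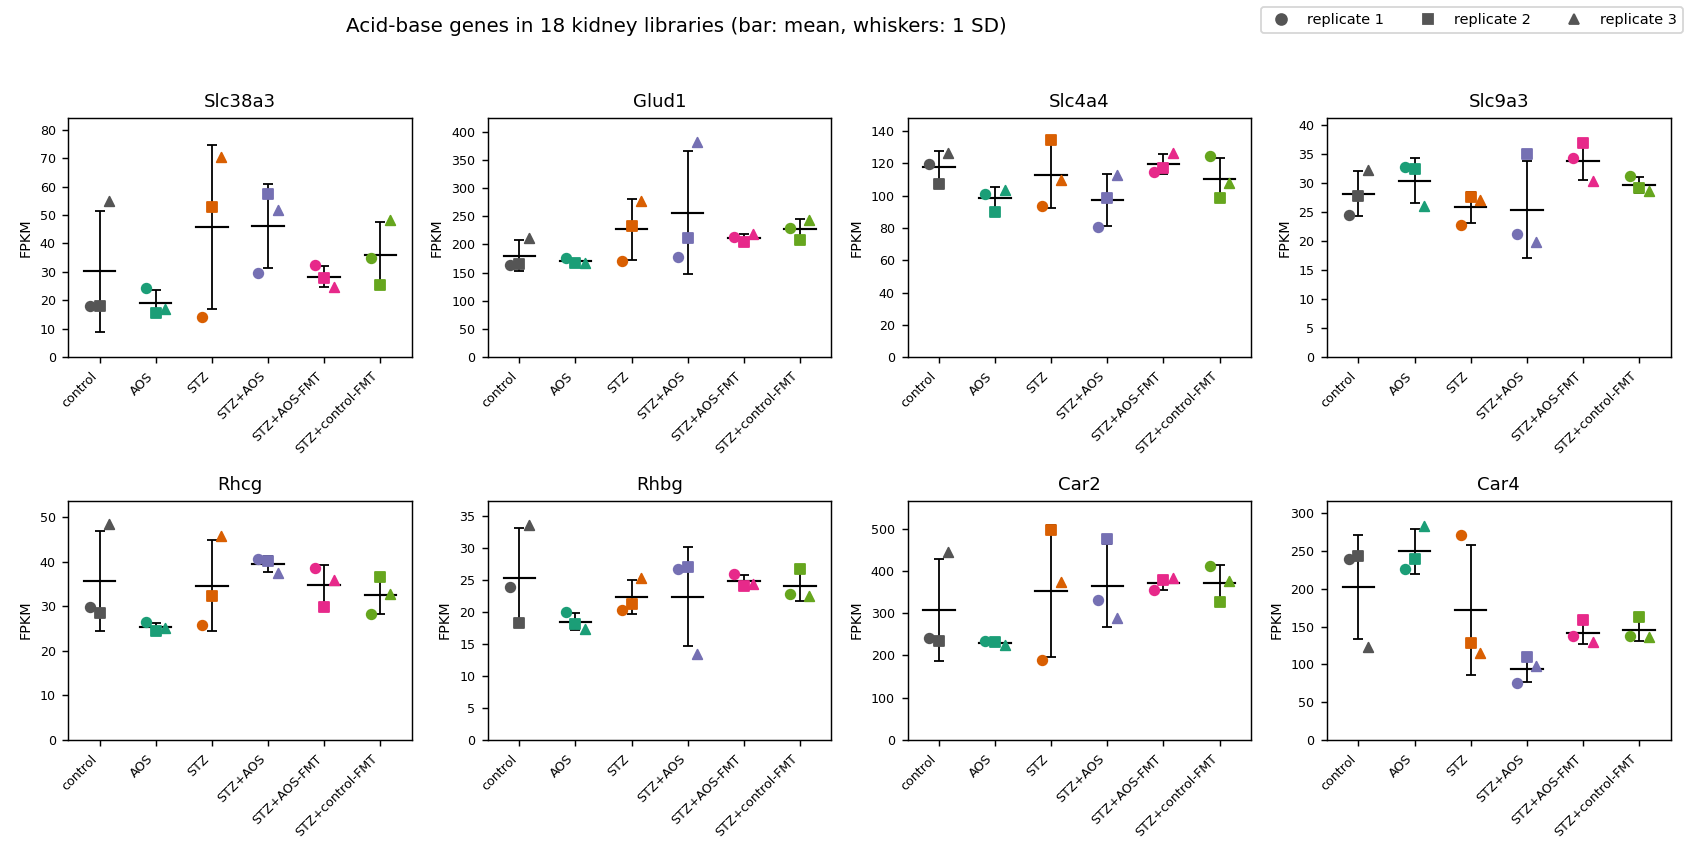
FPKM of the 8 genes (y axes, each from 0) in the 6 groups (x axes), 1 point per library with the replicate number shown by its shape, a bar at the group mean and whiskers of 1 SD (n = 3). In Car4 the 3 STZ+AOS libraries, at 74.5 to 110 FPKM, lie below all AOS libraries, at 226 to 283, and the control 3 and STZ 1 points lie apart from their groups in Slc38a3, Car2 and Car4.

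Slc38a3 encodes the glutamine transporter SNAT3, which takes up glutamine across the basolateral membrane of proximal tubule cells. Its level was 17.8, 17.9 and 54.8 FPKM in the controls, 24.4, 15.6 and 17.01 in AOS, 14.2, 52.9 and 70.5 in STZ, then 29.4, 57.3 and 51.6 in STZ+AOS. It was 32.2, 27.9 and 24.7 FPKM in STZ+AOS-FMT and 34.8, 25.2 and 48.1 in STZ+control-FMT. The control and STZ groups overlapped, with the control 3 library above the STZ 2 library and the STZ 1 library the lowest of all 18. In the order of group means, only STZ+AOS-FMT and AOS at the lower end were neighbours that did not overlap. All 3 STZ+AOS libraries lay above all AOS libraries, with a log2 difference of 1.21 ± 0.51 (SE) that missed the threshold (limma adjusted p = 0.0628).

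Glud1 encodes glutamate dehydrogenase, the mitochondrial enzyme that splits glutamate into ammonia and 2-oxoglutarate. Its level was 163, 166 and 212 FPKM in the controls, 175, 166 and 167 in AOS, 170, 233 and 277 in STZ, then 177, 211 and 381 in STZ+AOS. The transfers gave 212, 204 and 218 FPKM with the AOS label and 229, 207 and 243 with the control label. Every neighbouring pair in the order of group means overlapped. The STZ+AOS and AOS groups did not overlap, but the gap was small, from 177 FPKM in STZ+AOS 1 to 175 in AOS 1, and STZ+AOS 3 had the highest level of all. Their log2 difference was 0.51 ± 0.22 (SE; limma adjusted p = 0.0702).

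Slc4a4 encodes NBCe1, the basolateral sodium-bicarbonate cotransporter that returns bicarbonate from proximal tubule cells to the blood. It was the steadiest of the 8, at 120, 107 and 126 FPKM in the controls, 101, 89.97 and 104 in AOS, 93.8, 134.5 and 109.7 in STZ, then 80.6, 98.7 and 112.6 in STZ+AOS. STZ+AOS-FMT libraries had 114.9, 117.2 and 126.4 FPKM and STZ+control-FMT libraries 124.4, 98.8 and 107.9. All neighbouring groups overlapped. The AOS libraries lay below all controls, but the log2 difference of -0.26 ± 0.14 (SE) was not called (limma adjusted p = 0.817). Between STZ+AOS and AOS it was -0.03 ± 0.14 (95% interval -0.32 to 0.27).

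Slc9a3 encodes NHE3, the apical sodium-proton exchanger of the proximal tubule and thick limb, which secretes protons and can also carry ammonium. Its FPKM were 24.5, 27.8 and 32.2 in the controls, 32.8, 32.4 and 25.9 in AOS, 22.7, 27.6 and 27.0 in STZ, then 21.2, 34.9 and 19.9 in STZ+AOS. Both transfer groups lay above all STZ libraries, at 34.2, 36.9 and 30.3 FPKM with the AOS label and 31.1, 29.1 and 28.6 with the control label. Neither was called against STZ. The log2 difference was 0.38 ± 0.17 (SE; unadjusted p = 0.0426, adjusted p = 0.9995, limma) for STZ+AOS-FMT and 0.20 ± 0.17 (limma adjusted p = 1.00) for STZ+control-FMT. The transfer groups are compared with the same 3 STZ libraries. Between STZ+AOS and AOS, Slc9a3 differed by -0.29 ± 0.17 (limma adjusted p = 0.169) as deposited, -0.50 (0.0477, called) under quantile normalization and -0.63 (0.0118, called) under median-of-ratios rescaling. Its sign turned, to 0.20 (0.305), without the 3 libraries above 100 FPKM of the adrenal enzyme Cyp11b1.

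Rhcg encodes an ammonia channel of the apical and basolateral membranes of collecting duct and connecting tubule cells, most of all the acid-secreting intercalated cells. It was higher in STZ+AOS, at 40.7, 40.3 and 37.5 FPKM (39.5 ± 1.7), than in AOS, at 26.4, 24.4 and 25.2 FPKM (25.3 ± 0.99). The groups did not overlap, and the log2 difference of 0.62 ± 0.20 (SE) was called (limma adjusted p = 0.0225). Against the median of all genes it was 0.33. The call was lost under quantile normalization (0.45, adjusted p = 0.0563) and median-of-ratios rescaling (0.28, 0.132), and without AOS 2 (0.0626), AOS 3 (0.0576) or STZ+AOS 1 (0.0623). It was also lost without the 3 libraries above 100 FPKM of Cyp11b1, where the difference was 0.65 (0.0742) and STZ+AOS had only replicate 2. Elsewhere its FPKM were 29.9, 28.4 and 48.6 in the controls, 25.7, 32.4 and 45.8 in STZ, 38.6, 29.9 and 36.01 in STZ+AOS-FMT and 28.2, 36.6 and 32.8 in STZ+control-FMT. The AOS libraries thus lay below all controls, a log2 difference of -0.44 ± 0.20 (unadjusted p = 0.0452, adjusted p = 0.817, limma), and the control 3 library was the highest of all.

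The promoters of Rhcg and, further on, Car4 are shown because these were the 2 genes called between STZ+AOS and AOS. Each is the stretch of 250 bases before the start site in RefSeq (build GRCm38.p6, 5′ to 3′ on the strand of the gene), with the GC box, GGGCGG on either strand, in capitals. Rhcg lies at chr7:79593363-79617657 on the minus strand in GENCODE M21, and its window at chr7:79617658-79617907.
Rhcg: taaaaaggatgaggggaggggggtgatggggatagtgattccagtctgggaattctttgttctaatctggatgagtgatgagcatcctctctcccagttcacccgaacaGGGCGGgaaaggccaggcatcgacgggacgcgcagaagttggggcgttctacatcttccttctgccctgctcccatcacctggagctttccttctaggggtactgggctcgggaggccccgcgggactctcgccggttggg
The window had 1 GC box, at -141 from the start site, and none of the other 4 motifs searched on both strands. These were the TATAAA motif of many core promoters, the CCAAT box, the GTTAAT motif bound by HNF1 and the CACGTG form of the E-box. The GC box was found in 33% of 32544 promoters of this length, CCAAT in 33.8%, TATAAA in 12.3%, GTTAAT in 6.47% and CACGTG in 6.03%. Of the 8 genes 5 had a promoter in the RefSeq table, and Slc38a3, Rhbg and Car2 are named only.

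Levels of intercalated cell markers are given beside those of Rhcg. The summed level of 8 such markers was 118 to 165 FPKM in STZ+AOS and 98.8 to 108 in AOS. Of the 8, 3 (Slc4a9, Atp6v0d2 and Atp6v1g3) were called higher beside 39.3% of all genes, which is about the same share. Under quantile normalization and median-of-ratios rescaling, 0 of the 8 were called higher and 1, Slc26a4, lower. All genes also had more lower than higher calls under both. Per 100 FPKM of that sum Rhcg was at 26.9, 24.4 and 31.9 in STZ+AOS and 24.8, 22.6 and 25.5 in AOS, which overlap, and over all 18 libraries it stayed between 22.6 and 31.9. Rhbg encodes the related basolateral ammonia channel of the same cells. Its level was 23.9, 18.3 and 33.6 FPKM in the controls, 19.9, 18.01 and 17.4 in AOS, 20.3, 21.2 and 25.3 in STZ, 26.6, 27.0 and 13.5 in STZ+AOS, 25.9, 24.1 and 24.4 in STZ+AOS-FMT and 22.8, 26.7 and 22.5 in STZ+control-FMT. The STZ+AOS 3 library held the lowest level of Rhbg and a Rhcg level near that of its group, so that its ratio of Rhcg to Rhbg was 2.79, against 1.23 to 1.81 in the other 17 libraries. Between STZ+AOS and AOS the log2 difference of Rhbg was 0.20 ± 0.22 (limma adjusted p = 0.457), and its sign turned to -0.04 under quantile normalization and -0.13 under median-of-ratios rescaling. Rhbg shares 1190 exon bases on the same strand with Gm38392, which has no entry in the deposited table. How reads of the shared bases were assigned is unknown, so the level of Rhbg is uncertain.

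Car2 encodes the cytosolic carbonic anhydrase II of proximal tubule and intercalated cells. Its level was 242, 235 and 447 FPKM in the controls, 233, 231 and 225 in AOS, 188, 499 and 374 in STZ and, with AOS added, 332, 477 and 289. The transfer libraries had 354, 379 and 384 FPKM with the AOS label and 413, 327 and 377 with the control label. The 3 AOS libraries were close together and below all controls, and of the 18 libraries only STZ 1 was lower. All STZ+AOS libraries lay above all AOS libraries, with a log2 difference of 0.64 ± 0.30 (SE; limma adjusted p = 0.0906). Car2 is also abundant in red cells. Erythroid markers summed to 2098 to 13018 FPKM in STZ+AOS and 2708 to 6919 in AOS, with 0 of the 5 tested called, and their part in the level of Car2 was not tested.

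Car4 encodes carbonic anhydrase IV, which is anchored to the outer face of the apical and basolateral membranes of proximal tubule cells and is also found on capillary endothelium. It was the gene of the 8 that differed most clearly: 74.5, 110 and 97.6 FPKM in STZ+AOS (94.0 ± 17.96) against 226, 240 and 283 in AOS (249.6 ± 29.9). The groups were far apart, and the log2 difference of -1.41 ± 0.29 (SE) was called (limma adjusted p = 0.00640), or -1.70 against the median of all genes. It was called under every scaling tried and with any single library left out, where its adjusted p was 0.00169 to 0.0269. Without the 3 libraries above 100 FPKM of the adrenal enzyme Cyp11b1, which leaves STZ+AOS with replicate 2, assumed to vary like the other libraries, the difference was -1.17 and no longer called (0.0549).

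Car4 lies at chr11:84957786-84966044 on the plus strand in GENCODE M21, and its promoter window, shown like that of Rhcg, at chr11:84957504-84957753.
Car4: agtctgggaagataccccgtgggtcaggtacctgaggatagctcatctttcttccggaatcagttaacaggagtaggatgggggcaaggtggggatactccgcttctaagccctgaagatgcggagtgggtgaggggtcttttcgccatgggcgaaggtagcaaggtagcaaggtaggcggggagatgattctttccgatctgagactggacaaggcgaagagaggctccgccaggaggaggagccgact
None of the 5 motifs searched in Rhcg was found in it, so it holds no capitals.

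Elsewhere the FPKM of Car4 were 240, 243 and 122 in the controls, 271, 129 and 115 in STZ, 138, 159 and 130 in STZ+AOS-FMT and 137, 162 and 136 in STZ+control-FMT. Outside STZ+AOS no library was below 115 FPKM. The STZ+AOS libraries also lay below all STZ libraries, by -0.77 ± 0.29 (unadjusted p = 0.0189, adjusted p = 0.0950, limma). That difference was called without control 3 (0.0460) or STZ 3 (0.0329). With other single libraries left out, its limma adjusted p reached 0.427. It was not called without control 3 and STZ 1 together. The interaction, which is the AOS difference with STZ minus that without, was -1.14 ± 0.41 for Car4 (limma adjusted p = 0.0968).

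As a sum, proximal tubule markers were lower where Car4 was lower, but single markers were not all lower. Slc5a12 was at 113.7, 161.1 and 298 FPKM in STZ+AOS against 94.3, 147.5 and 83.0 in AOS. Cubn and Aqp1 overlapped between these groups. The summed level of 10 markers was 3672 to 5681 FPKM in STZ+AOS and 8266 to 9438 in AOS, and 6 of the 10 were called lower beside 7.18% of all genes (5 under quantile normalization, 9 under median-of-ratios rescaling, 2 without the libraries rich in Cyp11b1). Per 100 FPKM of that sum Car4 was at 2.03, 1.93 and 2.11 in STZ+AOS and 2.72, 2.54 and 3.42 in AOS, which do not overlap. Slc4a4, also a proximal tubule gene, was on the same measure at 2.19, 1.74 and 2.43 in STZ+AOS and 1.22, 0.953 and 1.25 in AOS, so the order was the opposite. Slc4a4 itself differed by only -0.03 ± 0.14 (SE), so this order follows from the lower marker sum it is divided by. Endothelial markers were higher where Car4 was lower, at a sum of 231 to 333 FPKM in STZ+AOS and 111 to 142 in AOS. Of 6, 6 were called higher beside 39.3% of all genes. Under quantile normalization 4 were higher, beside 1407 of the 12682 genes, and under median-of-ratios rescaling 3, beside 1723. None of these calls was kept without the libraries rich in Cyp11b1, where STZ+AOS had only replicate 2. The part of these cells, of the adrenal RNA and of the injury markers in the differences of the 8 genes was not tested.

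The ratio of Car2 to Car4 was computed in each library. It was 1.03, 0.963 and 0.796 in AOS and 4.45, 4.34 and 2.96 in STZ+AOS. The controls had ratios of 1.01, 0.966 and 3.65, and the STZ group 0.695, 3.88 and 3.24. In STZ+AOS-FMT it was 2.57, 2.39 and 2.96, and in STZ+control-FMT 3.01, 2.01 and 2.77. Libraries near 1 or below were thus controls 1 and 2, the 3 AOS libraries and STZ 1, and the other 12 lay at 2.01 or above. The ratio is a description, without a test.

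**Figure D2:**
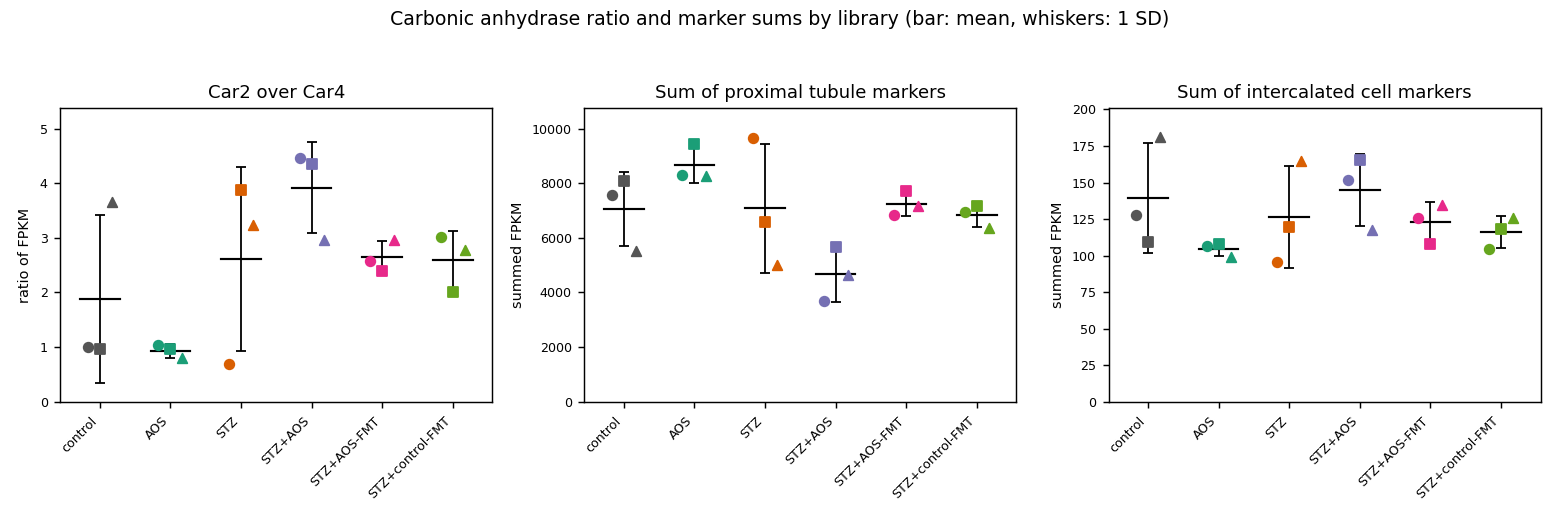
Ratio of Car2 to Car4 and the summed FPKM of proximal tubule and intercalated cell markers (y axes) in the 6 groups (x axes); circles, squares and triangles are replicates 1, 2 and 3, bars group means and whiskers 1 SD (n = 3). The ratio is at 0.796 to 1.03 in AOS and 2.96 to 4.45 in STZ+AOS, where the proximal tubule sum is lowest.

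In the comparison of STZ+AOS with AOS, which asks how mice given STZ differed where both groups had AOS, 2 of the 8 genes were called (Rhcg higher, Car4 lower) beside 46.5% of all genes. By direction, 1 of 8 was higher beside 39.3% of genes and 1 of 8 lower beside 7.18%. This split depended on scaling, since under both quantile normalization and median-of-ratios rescaling 0 of 8 were higher and 2 lower (Slc9a3 and Car4), while all genes also turned to more lower than higher calls. Of the 8, 5 did not overlap between the groups (Slc38a3, Glud1, Rhcg and Car2 higher, Car4 lower), beside 59.4% of all genes. Against these shares, the counts say nothing particular of the 8 genes as a group. The median of the 8 was 0.36 and that of all genes 0.29. Without control 3 and STZ 1, which enter only the shared estimate of spread, 5 of 8 were called, adding Slc38a3 (adjusted p = 0.00233), Glud1 (0.0431) and Car2 (0.00448) with unchanged differences, beside 56.5% of all genes. Both libraries were picked for their levels, which lie apart from their groups, so the smaller p-values are no independent evidence. Without the 3 libraries rich in Cyp11b1, limma called 0, with 5 at an unadjusted p under 0.05 (Slc38a3, Rhcg, Rhbg, Car2 and Car4), beside 4.78% of all genes.

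**Figure D3:**
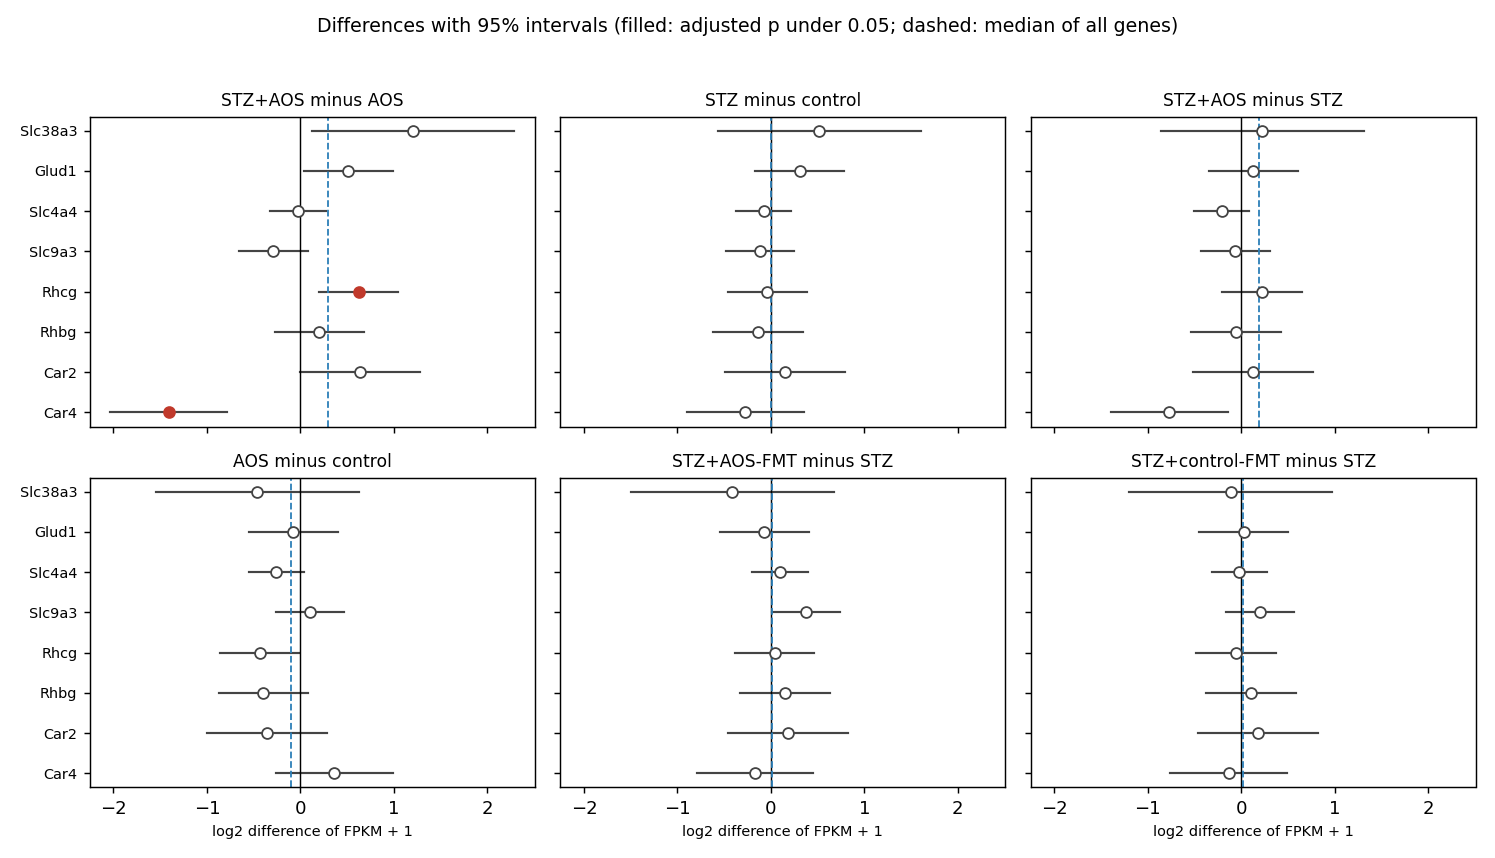
Log2 differences of FPKM + 1 (x axes) of the 8 genes (y axes) in 6 comparisons, with 95% intervals from limma, filled where the adjusted p is under 0.05 and with a dashed line at the median of all genes tested. Rhcg at 0.62 and Car4 at -1.41 in STZ+AOS minus AOS are the only filled points.

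In STZ against control, which asks what STZ alone did, limma called 0 of the 8 genes, 0 had an unadjusted p under 0.05, and 0% of all genes were called. The log2 differences were 0.52 ± 0.51 (SE) for Slc38a3, 0.31 ± 0.22 for Glud1, 0.15 ± 0.30 for Car2 and -0.27 ± 0.29 for Car4, and those of the other 4 lay between -0.14 and -0.04. No gene of the 8 was without overlap between the groups, beside 3.23% of all genes. After removal of the control 3 and STZ 1 libraries, which were picked for their levels so that the result is no independent evidence, limma called 3 of 8 beside 8.82% of all genes. Slc38a3 differed by 1.72 ± 0.32 (adjusted p = 0.00883), Car2 by 0.85 ± 0.19 (0.0199) and Car4 by -0.98 ± 0.17 (0.00498), while Glud1, at 0.62 ± 0.24 (0.1203), and Rhcg, at 0.39 ± 0.16 (0.123), missed the threshold.

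In AOS against control limma called 0 of 8, beside 0.071% of all genes. An unadjusted p under 0.05 was found for 1 of 8 (Rhcg), beside 521 of the 12682 genes tested. Of the 8, 3 (Slc4a4, Rhcg and Car2) lay below all controls, beside 10.2% of genes that did so. The differences of the 8 had a median of -0.31, where that of all genes was -0.09. They include control 3, which was the highest control in every gene of the 8 but Car4, where it was the lowest. Controls 1 and 2 had 17.8 and 17.9 FPKM of Slc38a3, against an AOS mean of 19.0. For Glud1 they had 163 and 166 FPKM, against 169.6. In Slc4a4, Rhcg and Car2, controls 1 and 2 also lay above all AOS libraries. In STZ+AOS against STZ limma called 0 of 8, beside 4.53% of all genes. There, 1 of 8 (Car4) had an unadjusted p under 0.05, beside 4200 of the 12682 genes tested. Car4 alone did not overlap, beside 4.01% of genes that lay lower without overlap.

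The transfers were compared with STZ and with each other. Limma called 0 of 8 in STZ+AOS-FMT against STZ, beside 0.11% of all genes, and 0 of 8 in STZ+control-FMT against STZ, beside 0.103%. In the former, 1 of 8 (Slc9a3) had an unadjusted p under 0.05, beside 479 of the 12682 genes tested. In the latter it was 0 of 8, beside 281 genes. Slc9a3 alone lay above all STZ libraries, beside 5.5% and 4.19% of all genes. Between the transfers, limma called 0 of 8, 0 had an unadjusted p under 0.05 and 0% of all genes were called. The log2 differences ranged from -0.30 ± 0.51 for Slc38a3 to 0.18 ± 0.17 for Slc9a3, and 0 of 8 were without overlap, beside 11.2% of genes. Car4 differed by -0.03 ± 0.29 (95% interval -0.66 to 0.59). In the interaction limma called 0 of 8 and 0% of all genes. An unadjusted p under 0.05 was found for 2 of 8, beside 4240 of the 12682 genes tested. These were Rhcg at 0.66 ± 0.28 (limma adjusted p = 0.126) and Car4.

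Other genes of these pathways were counted in 4 lists, to be read beside the 39.3% of all genes called higher and 7.18% called lower between STZ+AOS and AOS. Of 9 further genes of glutamine use and ammonia production, 8 were tested, and 3 were called higher and 0 lower in STZ+AOS than in AOS, with a median of 0.81 (all genes, 0.29). The 3 of 8 called higher are about the share of all genes. Gpt2, an alanine aminotransferase of mitochondria, had 56.6, 46.1 and 22.2 FPKM in STZ+AOS and 12.8, 12.6 and 13.7 in AOS (log2 difference 1.51 ± 0.40, limma adjusted p = 0.0108). Got1, the cytosolic aspartate aminotransferase, was at 74.2, 57.4 and 152 against 42.8, 43.4 and 40.9 FPKM (1.01 ± 0.29, 0.0140). Slc25a22, a mitochondrial glutamate carrier, was at 14.1, 21.1 and 71.5 against 13.4, 8.97 and 10.8 FPKM (1.28 ± 0.40, 0.0215) and was highest in STZ+AOS 3. Pck1, the cytosolic enzyme of gluconeogenesis that uses the carbon of glutamine, had 193, 888 and 2572 FPKM in STZ+AOS and 514, 550 and 664 in AOS, and was not called (0.41 ± 0.65, 0.608).

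Of 17 further transporters, regulators and carbonic anhydrases, 5 were called higher in STZ+AOS than in AOS (Car15, Slc4a2, Slc4a7, Slc4a9, Slc9a3r2). Called lower were 3 (Car12, Slc9a8, Slc9a3r1), and the median was 0.22. Beside 39.3% of all genes higher and 7.18% lower, the share higher was smaller and the share lower larger, each by few genes. Car15, a membrane-anchored carbonic anhydrase of the mouse kidney, was at 216, 179 and 196 FPKM against 73.0, 62.8 and 70.5 (1.5 ± 0.39, limma adjusted p = 0.0100). This was the opposite direction to Car4. Car12, a transmembrane carbonic anhydrase, was at 72.3, 91.6 and 52.4 FPKM against 92.3, 109 and 109 (-0.55 ± 0.18, 0.0268). Slc9a3r1 and Slc9a3r2 encode the scaffold proteins NHERF1 and NHERF2, which bind NHE3. Slc9a3r1 was lower, at 135, 133 and 114 FPKM against 158, 163 and 174 (-0.37 ± 0.12, 0.0227), and Slc9a3r2 higher, at 48.2, 38.3 and 45.7 FPKM against 27.5, 25.6 and 19.6 (0.84 ± 0.20, 0.00801).

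Of 7 proton pump genes 6 were tested, and 2 were called higher and 0 lower, beside 39.3% of all genes higher, with a median of 0.39. Atp6v0d2 and Atp6v1g3, subunits of the proton ATPase of intercalated cells, were at 15.2 to 21.8 against 11.46 to 12.4 FPKM (0.66 ± 0.24, limma adjusted p = 0.0368) and 17.1 to 21.6 against 13.2 to 14.7 FPKM (0.46 ± 0.17, 0.0376). Of 9 loop transporters and pH sensors 8 were tested, and 2 were called higher and 0 lower, beside the same 39.3%, with a median of 0.35. The proton-sensing receptor Gpr4, which endothelial cells express, was at 2.04 to 3.99 against 0.79 to 1.36 FPKM (0.97 ± 0.22, 0.00725), and the endothelin receptor Ednrb at 16.8 to 23.7 against 6.06 to 7.75 FPKM (1.43 ± 0.34, 0.00815). Both were higher in STZ+AOS than in AOS, as was the endothelial marker sum given above, and a link between them was not tested. These counts depended on scaling. Under median-of-ratios rescaling the 4 lists had 1, 3, 0 and 2 genes higher and 1, 6, 0 and 1 lower. Of all 12682 genes, 1723 were then higher and 2499 lower. Without the libraries rich in Cyp11b1, 2 genes of the first list, Gpt2 and Slc25a22, were called, and 0 of the other 3 lists. Elsewhere, limma called from these lists only Slc9a3r2, which was higher in STZ+AOS than in STZ (adjusted p = 0.0487), beside 3.44% of all genes. The call of Slc9a3r2 was lost under quantile normalization and without control 3 and STZ 1. It was also lost under median-of-ratios rescaling, where Car12 was called lower instead.

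**Figure D4:**
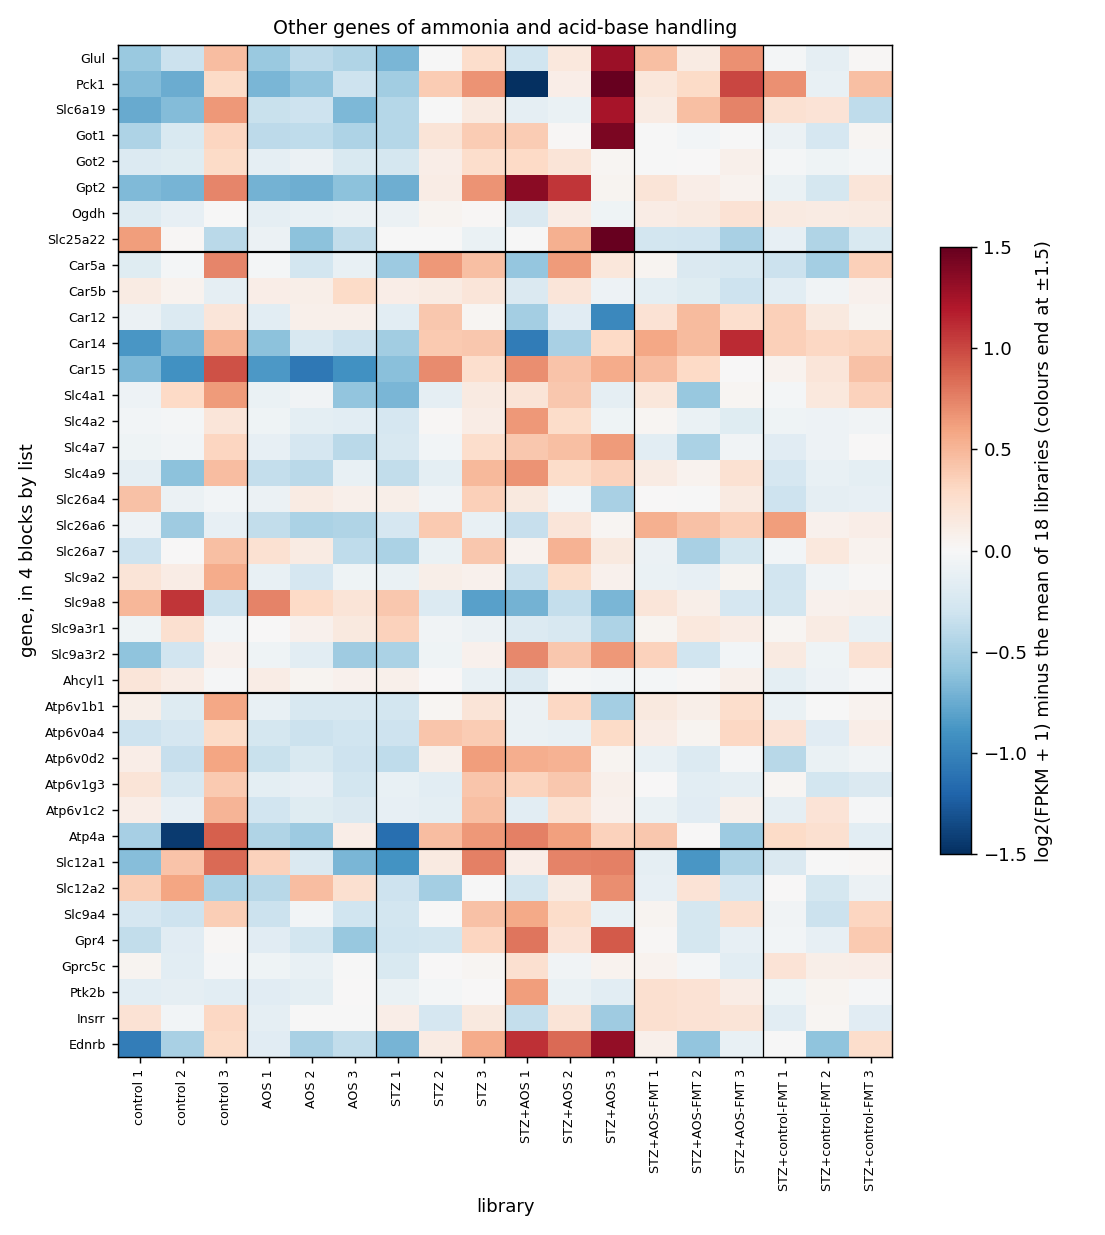
Log2(FPKM + 1) of the tested genes of the 4 lists (y axis, in blocks: glutamine and ammonia, bicarbonate and carbonic anhydrases, proton pumps, loop and pH sensors) minus each gene's mean over the 18 libraries (x axis), with colours that end at 1.5 in either direction. STZ+AOS 3 is highest in Pck1, Got1 and Slc25a22, and control 3 lies above controls 1 and 2 in Gpt2, Car15 and Ednrb.

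Genes whose levels were most like those of each of the 8 were found by Pearson's r of log2(FPKM + 1) over the 18 libraries, among 8302 genes with a mean of at least 5 FPKM. The libraries share treatments and tissue makeup, so r is a description. Slc38a3 was most like Mpzl2 (r = 0.95, Spearman's rho = 0.97), Itm2b (0.94) and Agt (0.93). Glud1 was most like Bnip3 (0.95), Ulk1 (0.95) and Depp1 (0.94). For Rhcg these were Hddc2 (0.95), Bcat2 (0.94) and Hadha (0.93), and for Rhbg Commd4 (0.95), Ndufb7 (0.92) and the proton pump subunit Atp6v1b1 (0.89). Car2 went with Eno1b (0.96), Ccng1 (0.94) and the distal tubule calcium-binding protein Calb1 (0.94), and Car4 with Entpd4b (0.97), Cmtm6 (0.96) and Dhrs4 (0.96). Eno1b and Entpd4b have near-identical copies, so their levels are uncertain. The even genes Slc4a4 and Slc9a3 had looser neighbours, Psme4 (0.81) and Atp5a1 (0.79) for the former and Zfand1 (0.77), Ube2u (0.76) and Slc22a4 (0.75) for the latter.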

How the data were processed

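RNA sequencing libraries from 18 mouse kidney samples were deposited as 1 table of gene values. The deposited values are FPKM, a unit inferred from the values, since neither labels nor header name it: multiplied by gene length, the library totals varied by 0.938% (coefficient of variation) between libraries and without that by 5.47%. Bowtie 0.12.2 and the genome mm10 are named in the submitters' processing notes; neither counting tool, strand setting nor annotation is given in the sources used here. Symbols (19542, of which 3 stand on 2 entries) were matched to GENCODE M21 in 18990 cases for coordinates and lengths. Read totals are unknown; from low values of 2446 to 2530 genes in each library, the worth of 1 read differed by at most 1.12 times between libraries. A library had 11407 to 12607 genes at 1 FPKM or more.

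The 12682 genes that reached 1 FPKM in 3 or more libraries were put on the scale of log2(FPKM + 1) and fitted over all 18 libraries in limma 3.58.1 under R 4.3.3 (group means, trend and robust options) after a test on simulated data. A pseudocount of 1 understates changes of genes near 0. The smallest p of an exact permutation test of 3 against 3 samples is 0.1, so limma made the calls. Replicates are separate samples per the labels, which do not say that each is another mouse, so p-values measure the spread between samples, which may be technical. The 8 genes, the lists, the markers and the comparisons were chosen with earlier results of these data known. All 8 genes are named with every value; up to 4 genes per list (called ones first, then those with the highest mean) and the 3 genes most like each member are named too, except 3 genes, 2 of the lists and 1 of those most alike, that are not reported here. As alternatives, the values were rescaled by quantiles or by median of ratios, the filter was dropped or set to a mean of 5 FPKM, the pseudocount was set to 0.1 or 5, and limma was run without trend and robust, with library weights, on the compared groups alone or with the replicate number as block. Each library in turn, control 3 together with STZ 1, and the 3 libraries with more than 100 FPKM of Cyp11b1 were also removed.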

Additional observations from a re-analysis of the deposited data

How the results depend on the processing

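Of 269 recalculated counts of called members, 251 gave the reported count or one within 1.5 times of it, and of 299 recalculations of the 10 single-gene results with an unadjusted p under 0.05, 272 kept their direction and side of the threshold and 0 reversed. Outside these 10, the signs of Rhbg and Slc9a3 between STZ+AOS and AOS turned as given above. The counts were compared by number only, and all reported counts but that of STZ+AOS against AOS were 0. In that comparison, quantile normalization and median-of-ratios rescaling kept the count of 2, but with Slc9a3 in place of Rhcg. For any difference among the 6 groups, where 0 members were called, library weights gave 6 (49.5% of all genes), leaving out control 3 and STZ 1 gave 4 (42.6%), and single libraries left out gave 0 to 1 (Car4 without control 3, STZ 1 or STZ 3). For STZ against control, also 0, weights gave 4 beside 7.76% of all genes, and leaving out control 3 and STZ 1 gave 3. In every comparison, counts without both of these libraries are no independent evidence, since they were picked for their levels. For STZ+AOS against STZ, single libraries left out gave 0 to 1 (Car4), and for the interaction 0 to 2 (Rhcg and Car4 without STZ 3, adjusted p of 0.0316 and 0.0346). With other single libraries left out, the limma adjusted p of the interaction reached 0.316 for Rhcg and 0.240 for Car4. The interaction includes both control 3 and STZ 1. For STZ+AOS against AOS, where 2 were called, weights gave 5 (53.5% of all genes), the fit of only these groups 4 (42.9%), leaving out control 3 and STZ 1 gave 5 (56.5%), leaving out the libraries rich in Cyp11b1 gave 0, and single libraries left out gave 1 to 4 (1 without AOS 2 or AOS 3, 4 without STZ 1). With the replicate number as a block it gave 4 (47.3%), adding Slc38a3 (adjusted p = 0.04998) and Glud1 (0.0361). The numbers do not pair the samples by the labels, and same-numbered deviations of STZ and control correlated at 0.544, -0.165 and 0.667, those of STZ+AOS and AOS at 0.0526, -0.0254 and -0.0501. Between 0 and 5 of 6 libraries per comparison correlated best with their own number. The cause of these changes was not tested. What depth limits cannot be stated, since read totals are unknown.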
